A study of Mus musculus with 4 samples.

Results

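miR-153 and miR-223 are microRNAs that have been reported to repress the transcription factor Nfia. They were taken by name, as the 2 of 650 miRNAs on the array whose systematic name is mmu-miR-153 or mmu-miR-223. A microRNA is a short RNA that pairs, mostly through the bases near its 5′ end called the seed, with sites in messenger RNAs and lowers their translation or stability. NFIA turns neural stem cells from making neurons toward making astrocytes. miR-153 is enriched in brain and has been reported to hold back that turn in mouse neural stem cells by targeting Nfia and Nfib. miR-223 is a miRNA of myeloid blood cells, and its repression of NFIA was described in human granulocyte differentiation.

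The cells were neural stem and progenitor cells derived from mouse embryonic stem cells and cultured in suspension as neurospheres, in which neural progenitors divide and form balls of cells. Secondary neurospheres (passage 1) were taken 12 days after the embryoid body stage, and primary neurospheres (passage 0) 6 days after it. In each passage NFIA-overexpressing (OE) and control cells grew in the same mixed spheres and were separated by fluorescence-activated sorting. Each of the 4 resulting samples, secondary titled NFIA OE, secondary titled control, primary titled NFIA OE and primary titled control, was read on 1 Cy3 array, so no group had a replicate. The labels contradict each other: in both passages the sample titled NFIA OE has a source name that calls it WT, and the sample titled control a source name that calls it the NFIA OE line. Groups here follow the titles, and by the source names every difference by title would turn its sign. Nfia messenger RNA was not measured on these arrays, so neither label can be checked. The labels do not give the promoter that drives NFIA, and both samples of a passage came from 1 mixed culture.

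The mature strands that the 2 names stand for are shown first because the seeds decide which messages each can pair with. The array names give no strand, and these names were the earlier names of the 3p strands. Sequences are from RefSeq (GRCm38.p6), written 5′ to 3′, with the seed (bases 2 to 8) in capitals.
mmu-miR-153-3p: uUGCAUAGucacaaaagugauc
mmu-miR-448-3p: uUGCAUAUguaggaugucccau
mmu-miR-223-3p: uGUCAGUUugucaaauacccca
mmu-miR-322-5p: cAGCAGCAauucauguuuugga
The 2 members have different seeds, and miR-153-3p and miR-223-3p have the same base at 8 of 22 positions. miR-448-3p is shown because it is the miRNA on the array that shares bases 2 to 7 with miR-153-3p. Its first 7 bases are those of miR-153-3p, it differs at base 8, and over the full length 9 of 22 positions are the same. No other mature strand among 1679 in the RefSeq table shares bases 2 to 8 with either member (0 each). miR-322-5p is shown because it is the mouse counterpart of human miR-424, which was reported to target NFIA during human monocyte differentiation, and its seed is again a different one.

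The hairpin precursors show where each strand comes from, with the 3p strand in capitals.
Mir153 hairpin: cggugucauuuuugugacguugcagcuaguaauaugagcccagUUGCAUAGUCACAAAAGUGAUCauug
Mir223 hairpin: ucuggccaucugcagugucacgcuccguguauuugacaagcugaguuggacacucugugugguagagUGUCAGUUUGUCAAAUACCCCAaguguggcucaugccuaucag
Mir153 lies on the plus strand of chromosome 12 at chr12:117250817-117250885 (GRCm38.p6). That is inside the span of Ptprn2 (chr12:116485695-117278167), which encodes a receptor-type tyrosine phosphatase of secretory vesicles, and inside the span of the long noncoding RNA Gm5441 (chr12:117234521-117337012). Mir223 lies at chrX:96242817-96242926, inside the span of the long noncoding RNA F630028O10Rik (chrX:96239926-96243642). The gene table used here holds no exons, so the position within these genes is given only as a span.

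The scanner signal is a background-subtracted intensity in linear units. Detection followed the scanner software's flag for spots well above background. A probe needed that flag on at least 50% of its spots, and a miRNA needed 1 such probe. By that rule 153 of 650 miRNAs (23.5%) were detected on all 4 arrays and 398 (61.2%) on none. miR-153 was one of the miRNAs detected on every array, and miR-223 one of those detected on none. Each member was read by 2 probes with 10 spots each on every array.

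miR-153 was clearly measured by probe A_54_P1106, and its spots stood well apart from the negative controls. On the secondary array titled NFIA OE that probe averaged 175 ± 3.16 units (SD over spots, n = 8 after 2 spots flagged as outliers were left out). On the secondary array titled control it averaged 342 ± 9.91 units (n = 10 spots). On the primary array titled NFIA OE it averaged 182 ± 3.31 units (n = 8 spots, 2 flagged), and on the primary array titled control 217 ± 6.70 units (n = 10 spots). All of these spots were well above background, and the dimmest, at 169 units, was far brighter than the brightest negative-control spot on any array, at 17.0 units. The spread between spots was small, with a coefficient of variation of 1.80% to 3.08%, but spots on 1 array are technical repeats of 1 RNA sample.

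The arrays differed in total brightness, which changes how the miR-153 levels compare. The 75th percentile over the 252 probes detected on every array was 369 and 443 units on the secondary arrays titled NFIA OE and control, and 261 and 167 units on the primary arrays titled NFIA OE and control. Divided by that percentile, the level of miR-153 was 0.476 on the secondary array titled NFIA OE and 0.773 on the secondary array titled control. On the primary arrays it was 0.698 titled NFIA OE and 1.30 titled control. Scaled in this way the primary array titled control was highest, and the next in order, the secondary array titled control and the primary array titled NFIA OE, lay closer together than the residual SD of 0.29 log2 between arrays (log2 levels -0.37 and -0.52). The authors' processed values put miR-153 at 4.17 and 7.33 on the secondary arrays titled NFIA OE and control, and at 3.84 and 7.76 on the primary arrays titled NFIA OE and control. In all of these versions both arrays titled NFIA OE were below both arrays titled control, while the order of the passages changed between them.

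**Figure D1:**
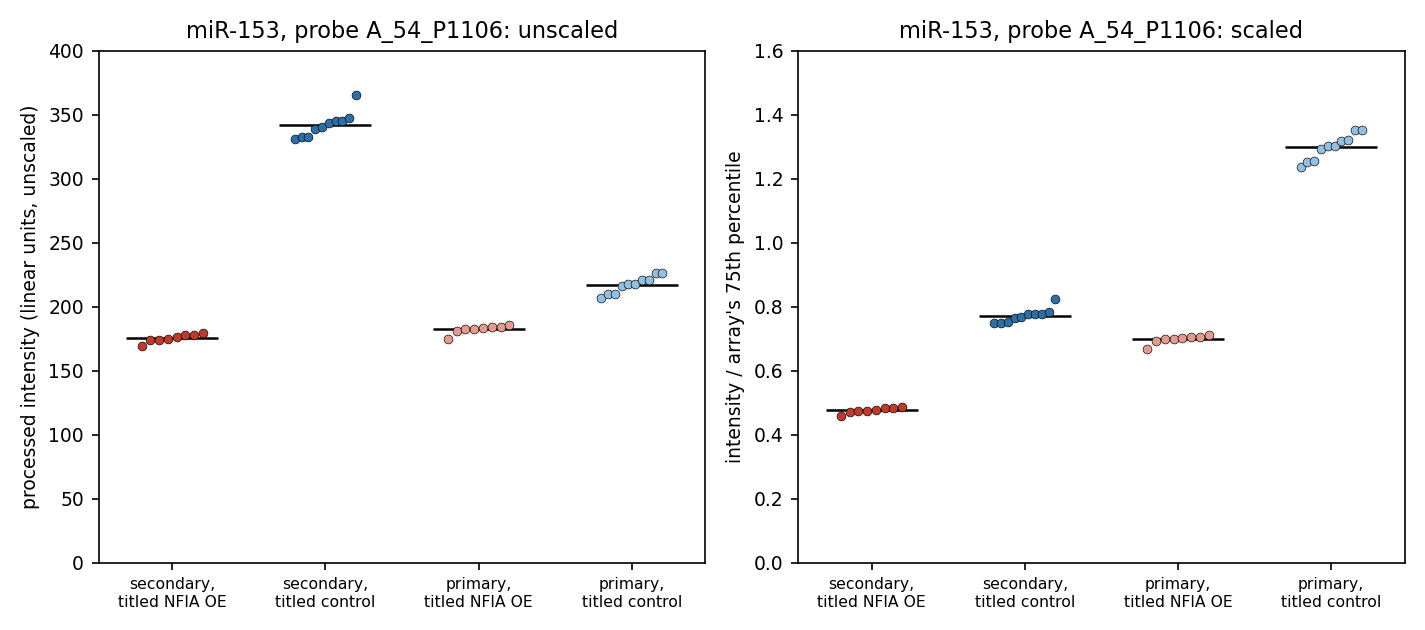
Spots of miR-153 probe A_54_P1106 on each array, with the processed intensity on the left and the same values divided by the array's 75th percentile on the right (points are spots, lines are means, outlier spots left out). Both arrays titled NFIA OE (means 175 and 182 units, or 0.476 and 0.698 scaled) lie below both arrays titled control (342 and 217 units, or 0.773 and 1.30 scaled), and the highest array is the secondary one titled control unscaled but the primary one titled control once scaled.

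The comparison by title asks whether a miRNA reported to repress Nfia differs with the NFIA label of the cells. With the NFIA OE title miR-153 was 1.74-fold lower (log2 difference -0.80, SE 0.29, 95% interval -1.38 to -0.21, n = 2 arrays per title), and it was lower in both passages. It did not pass the test over all miRNAs (limma, unadjusted p = 0.00767, Benjamini-Hochberg adjusted p = 0.147), in a fit that called 2.61% of the 153 miRNAs in either direction and 1.31% lower. The 4 calls, 2 higher and 2 lower, were 2 higher and 0 lower without scaling. The difference of miR-153 was the 5th lowest of 153, and the median miRNA stood at -0.00. An unadjusted p under 0.05 with a lower value was found for 9 of 153 miRNAs (5.88%), miR-153 among them. Each title has 1 array at each passage, and the fit gave all 153 miRNAs the same SE, pooled over them. The p thus sets the size of the difference against a pooled spread between arrays, which may be technical. It does not measure how well the difference of miR-153 itself repeats.

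Each passage was also compared on its own. In the secondary pair miR-153 was 1.62-fold lower on the array titled NFIA OE (log2 ratio -0.70, SE over spots 0.016). In the primary pair it was 1.86-fold lower on the array titled NFIA OE (log2 ratio -0.90, SE over spots 0.017). At passage 1 the scaled spots ran from 0.459 to 0.487 titled NFIA OE and from 0.748 to 0.824 titled control. At passage 0 they ran from 0.669 to 0.711 and from 1.24 to 1.35 in that order. The SE over spots covers spotting and scanning only, and each pair holds 1 array on each side, so the pairs have no test. Of 153 miRNAs, 51 were lower in both pairs. In both pairs 3 were lower by at least the smaller of the 2 miR-153 differences (0.70 log2 when rounded). That cutoff includes miR-153 by construction.

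The direction was the same under every scaling tried. In all 11 of the processing settings that change signals, scaling, spots or filters, the reported one included and 2 of which also draw on a dim probe set at a floor, both arrays titled NFIA OE were below both arrays titled control. In the reported setting 7.19% of miRNAs (11 of 153) were arranged that way, and 4.58% (7) with no scaling. The arrangement was commoner with the authors' processed values (24.2%, or 37), the percentile over all probes (33), median centring (24) and quantile normalization (20). It was shown by 9 with normexp background correction and 12 with the median over spots. The other settings gave 12 of 154 (outlier spots kept), 26 of 252 (detected on at least 1 array) and 21 of 650 (no filter). The difference over both passages ran from -0.91 to -0.61 over the 8 alternatives that re-estimate it without setting a dim probe at a floor. Of these 0 took it past the threshold (limma adjusted p 0.0503 to 0.999). It came nearest with the authors' processed values, at -0.91 (limma adjusted p = 0.0503), which also add in the dim probe as measured.

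**Figure D2:**
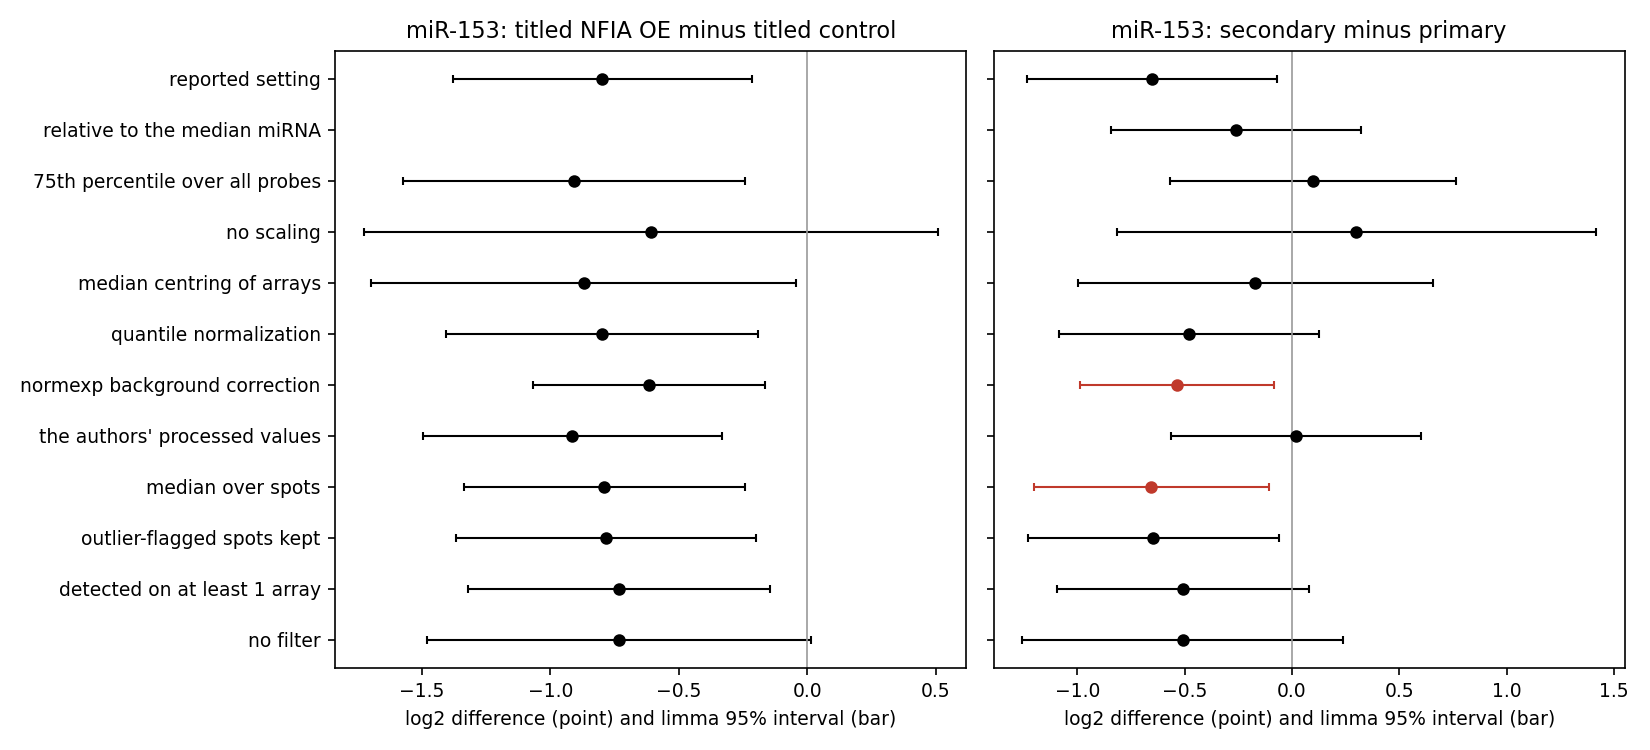
Log2 difference of miR-153 by title (left, titled NFIA OE minus titled control) and by passage (right, secondary minus primary) under the reported setting and alternative settings, with limma 95% intervals as bars and red where the adjusted p was under 0.05. The title difference stays between -0.91 and -0.61 in the settings drawn, while the passage difference lies on both sides of 0, from -0.66 to 0.30.

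The comparison by passage asks whether miR-153 changes as neurospheres are passaged, a step that in these samples goes with more days in culture. With the reported scaling miR-153 was 1.57-fold lower in secondary neurospheres (log2 difference -0.65, SE 0.29, 95% interval -1.23 to -0.07, n = 2 arrays per passage) and missed the threshold (limma unadjusted p = 0.0288, adjusted p = 0.0612), where 37.3% of miRNAs were lower at an unadjusted p under 0.05. In the same fit limma called 45.8% of miRNAs in either direction and 32.7% lower, and the median miRNA stood at -0.39. The calls, 20 higher and 50 lower here, were 26 higher and 27 lower relative to that median, 25 higher and 5 lower when all probes set the percentile, 20 higher and 1 lower without scaling, and in the authors' processed values 39 higher and 17 lower. Relative to that median the difference of miR-153 was -0.26 (limma adjusted p = 0.566), and 51 of 153 miRNAs had a lower value than miR-153. The pair titled NFIA OE gave -0.55 and the pair titled control -0.75. The sign depends on the scaling: without scaling it was 0.30 (adjusted p = 0.760), with the percentile over all probes 0.10 (adjusted p = 0.806) and with the authors' processed values 0.02 (adjusted p = 0.961). It was called lower in 2 of 14 alternatives, normexp background correction and the median over spots. In none of the 11 settings (0) were both secondary arrays below both primary arrays for miR-153. That was fixed by its arrangement by title, since the primary array titled NFIA OE lay below the secondary one titled control. It is therefore no separate result on passage. Over all miRNAs the share with both secondary arrays below was 56.9% in the reported setting and 20.3% with the authors' processed values.

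The other miR-153 probe, A_54_P1105, was much closer to background and was detected on 1 of 4 arrays. It averaged 18.8 ± 3.22 units on the secondary array titled NFIA OE, with 3 of 10 spots well above background, and 35.1 ± 3.29 units on the secondary array titled control, with 10 of 10 (SD over spots, n = 10 each). On the primary arrays it averaged 16.8 ± 3.84 units titled NFIA OE and 16.3 ± 3.81 units titled control, with 3 of 10 spots well above background on each. Since only the secondary array titled control passed the detection rule, its signal there was at least 1.53-fold higher than on the secondary array titled NFIA OE after scaling, by a bound that sets the dim array at the lowest signal of any detected probe. No fold is given for the primary pair, where the probe was below the rule on both arrays and its unscaled spots overlapped. The scaled levels of miR-153 and the differences in the reported setting therefore rest on probe A_54_P1106 alone, while the authors' processed values add up both probes.

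miR-223 stayed below the detection rule on all 4 arrays. Of its 78 spots left after 2 outliers, 0 were well above background, and the scanner software's own call for the miRNA was negative on all 4 arrays. Probe A_54_P2629 averaged 7.05 ± 3.16 units on the secondary array titled NFIA OE (n = 8 spots) and 7.26 ± 3.84 units on the secondary array titled control (n = 10 spots). On the primary arrays it averaged 5.71 ± 2.93 units titled NFIA OE and 5.05 ± 3.11 units titled control (n = 10 spots each). Probe A_54_P2630 averaged 5.34 ± 6.24 and 4.85 ± 6.11 units on the secondary arrays titled NFIA OE and control, and 5.01 ± 1.61 and 7.22 ± 3.45 units on the primary arrays titled NFIA OE and control (n = 10 spots each). The spots of the 4 arrays overlapped for both probes, and the brightest, at 17.9 units on the secondary array titled NFIA OE, was below the lowest signal of a detected probe on that array, 19.0 units.

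The negative controls give the background for those values. Their median was 2.92 and 3.04 units on the secondary arrays titled NFIA OE and control, and 2.95 and 3.73 units on the primary arrays titled NFIA OE and control, from 428 to 431 spots an array. Of the miR-223 spots, 13 of 78 (16.7%) were above the 95th percentile of the negative controls of their own array. By array these were 4 of 18 on the secondary array titled NFIA OE, 5 of 20 on the secondary array titled control, 0 of 20 on the primary array titled NFIA OE and 4 of 20 on the primary array titled control. Under the software's looser flag, a signal that is positive and significantly above local background, 55 of 78 miR-223 spots (70.5%) counted, but so did 33.1% to 49.3% of the negative-control spots. Since miR-223 was below the detection rule on both sides of every pair, no fold between groups is given for it. The authors' processed values list it at 0.266 and 0.235 on the secondary arrays titled NFIA OE and control and at 0.207 and 0.408 on the primary ones titled NFIA OE and control, with no mark that it was not detected.

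**Figure D3:**
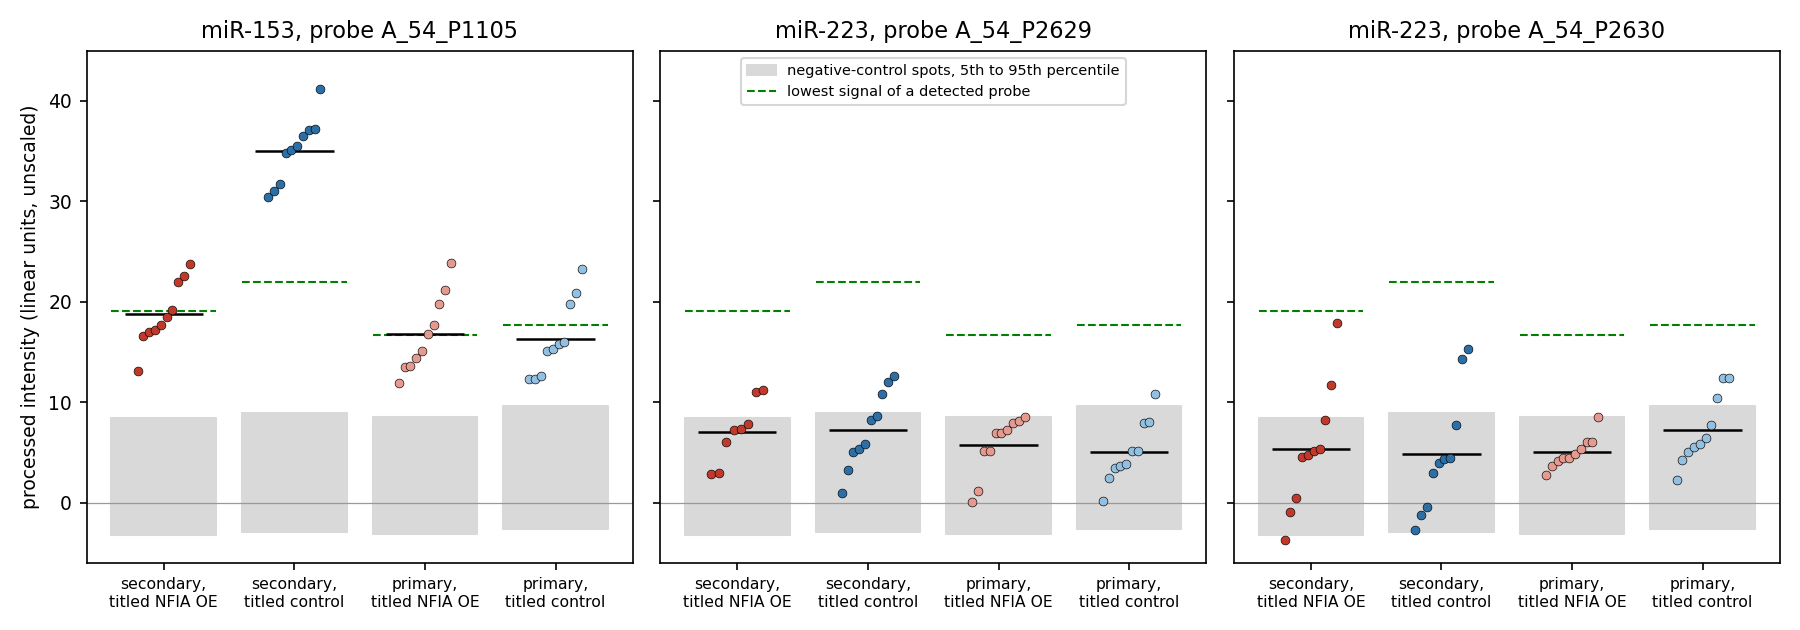
Spots of the dim miR-153 probe and of both miR-223 probes on each array, in unscaled intensity units (points are spots, lines are means), against the negative-control spots (grey, 5th to 95th percentile) and the lowest signal of any detected probe (dashed). miR-223 spots reach 17.9 units and none is above the dashed line. All spots of the dim miR-153 probe lie above it on the secondary array titled control, at 30.4 to 41.2 units. On each of the other arrays the spots of that probe lie on both sides of the line.

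miR-448, the seed relative of miR-153, stayed below the detection rule throughout. It was read by 4 probes with 5 spots each, of which 0 carried the flag, and its probes averaged from -2.66 to 5.07 units.

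Among 3 miRNAs reported to target Nfia, 2 were measured, and by title they lay on opposite sides of 0. miR-322 was at a scaled level of 2.58 on the secondary array titled NFIA OE and 2.45 on the secondary array titled control. On the primary arrays it was at 2.08 titled NFIA OE and 0.760 titled control. The primary array titled control was the low one of the 4. With the NFIA OE title miR-322 was 1.70-fold higher (log2 difference 0.76, SE 0.29, limma adjusted p = 0.148, not called), with 0.07 in the secondary pair and 1.46 in the primary pair. By passage it was called higher in secondary neurospheres (log2 difference 1.00, SE 0.29, limma adjusted p = 0.00325), in a fit that called 13.1% of miRNAs higher, with 0.31 in the pair titled NFIA OE and 1.69 in the pair titled control. That call was lost in 4 of 12 alternatives (adjusted p 0.0670 to 0.291), all with a positive value. The SE, here and by title, is pooled over all miRNAs. Neither it nor the p therefore reflects how far the 2 pairs of miR-322 differ. Over the 2 measured miRNAs 0 were called by title, and 1 was called higher and 0 lower by passage.

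The miRNAs whose profile over the 4 arrays was nearest to that of miR-153 were miR-219, miR-135b, miR-7a, miR-872 and miR-130a. Nearness was the root-mean-square distance between log2 profiles, each centred on its own mean, over 4 arrays that share 1 slide. A factor applied to a whole array cancels in it, so it does not depend on the scaling. The distances were 0.15 for miR-219, an oligodendrocyte-enriched miRNA, 0.21 for miR-135b, 0.24 for miR-7a, a neuronal and endocrine miRNA, 0.24 for miR-872 and 0.25 for miR-130a, against a median of 0.50 over the 152 other miRNAs detected on all arrays. The same 5 were nearest with the authors' processed values. With 4 points a profile is a coarse description, and a near profile says nothing about a shared cause. None of the strands that RefSeq lists for these 5 miRNAs shares bases 2 to 7 with either member (0 of 10). For miR-135b that list holds only the 3p strand, so a 5p strand was not compared.

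With the reported scaling each of the 5 was highest on the primary array titled control and lowest on the secondary array titled NFIA OE, as miR-153 was. That order changes with the scaling: without it miR-153 was highest on the secondary array titled control, and in the authors' processed values it was lowest on the primary array titled NFIA OE. miR-219 had centred log2 levels of -0.43 and -0.01 on the secondary arrays titled NFIA OE and control and of -0.31 and 0.75 on the primary arrays titled NFIA OE and control, beside -0.67, 0.02, -0.12 and 0.77 for miR-153 in that order. By title miR-135b was called lower with the NFIA OE title (log2 difference -1.05, limma adjusted p = 0.0195), a call lost in 7 of 11 alternatives (adjusted p 0.00448 to 0.999 over all 11). miR-219 (-0.74), miR-7a (-0.76), miR-872 (-0.34) and miR-130a (-0.34) had negative values and were not called (limma adjusted p 0.148 to 0.890).

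**Figure D4:**
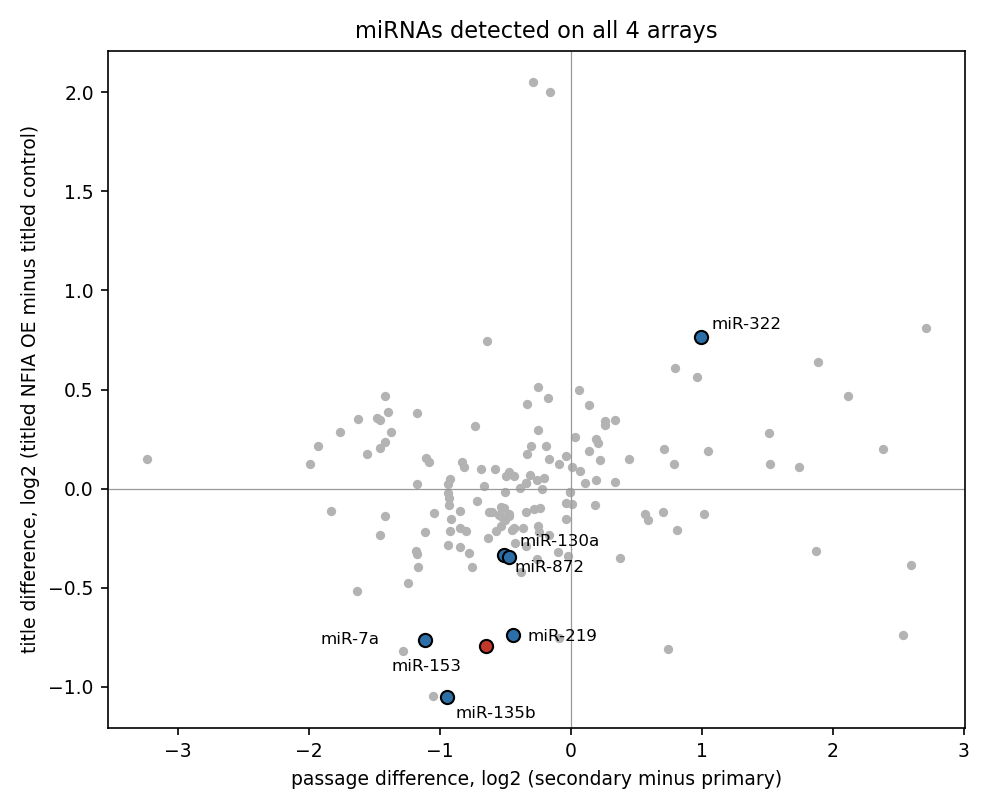
Title difference (vertical, titled NFIA OE minus titled control) against passage difference (horizontal, secondary minus primary) for the 153 miRNAs detected on all arrays, on the log2 scale (grey points are the other miRNAs). miR-153 (red, at -0.65 and -0.80) lies among the lowest title differences, near miR-219, miR-7a and miR-135b, while miR-322 (at 1.00 and 0.76) lies in the opposite quadrant, and positions along the passage axis shift with the scaling.

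Markers of cell types give the setting of these values. Of 8 miRNAs typical of blood cells, 7 were detected on no array, miR-142-3p and miR-451 among them, beside 61.2% of all 650 miRNAs. The other, miR-155, was detected on both primary arrays. The summed scaled signal of the 8 was 0.026 and 0.051 on the secondary arrays titled NFIA OE and control and 0.030 and 0.055 on the primary arrays titled NFIA OE and control. Of 9 neural miRNAs, miR-9 and miR-124 among them, 9 and 9 were detected on the secondary arrays titled NFIA OE and control and 7 and 8 on the primary arrays titled NFIA OE and control. Of all 650 miRNAs, 207 and 209 were detected on the secondary arrays and 220 and 186 on the primary arrays in that order. Their summed scaled signal was lower on the arrays titled NFIA OE in both passages, at 15.5 against 23.7 in secondary and 7.45 against 11.5 in primary neurospheres, the same direction as miR-153. Without scaling the primary pair was level, at 1945 units titled NFIA OE and 1918 units titled control. Of the 7 neural miRNAs measured on all arrays 0 were called by title (limma), beside 2.61% of all 153. All 7 had negative values, beside 77 of all 153, and their median was -0.42, beside -0.00. By passage the 7 did not move together, although their sums were higher in secondary neurospheres. In the reported setting limma called miR-9 (1.87) and miR-9* (2.60) higher, beside 13.1% of all 153. It called miR-124 (-1.28) and miR-7a (-1.12) lower, beside 32.7%. Negative passage values were found for 5 of the 7, and their median was -0.38, beside -0.39 over all 153.

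Of 10 miRNAs of pluripotent cells, 7 and 1 were detected on the secondary arrays titled NFIA OE and control, and 9 and 9 on the primary arrays titled NFIA OE and control. The counts over all 650 miRNAs were 207 and 209 on the secondary arrays and 220 and 186 on the primary arrays in that order. Their summed scaled signal was 1.06 and 0.505 on the secondary arrays and 9.69 and 11.6 on the primary arrays in that order. Without scaling the primary sums were 2530 units titled NFIA OE and 1939 units titled control, so the title direction in that pair turned, while in the secondary pair it did not. Detection of these markers thus moved with the passage and, at passage 1, with the title, and miR-290-3p was detected on no array. In sorted bulk samples, fewer cells of a type and less of a miRNA per cell cannot be told apart. The part of such differences in the values of miR-153 was not tested. All 4 muscle miRNAs, miR-1 among them, were below the detection rule on every array, beside 61.2% of all 650 miRNAs.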

How the data were processed

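The 4 groups, of 1 sample each, were read on 1-colour Agilent arrays of 1 slide. The scanner output that the authors deposited gives each spot's intensity in linear units. Per the file headers, Feature Extraction 10.5.1.1 subtracted a fitted spatial background surface, and nothing was scaled between arrays. A deposited table, also in intensity, has 660 rows and lists values for 350 to 376 of them per array, the others being empty, with a total signal under 1. When checked, each listed value was the software's total gene signal over an array-wide constant of 31.0 and 33.7 (secondary, titled NFIA OE and control) or 34.1 and 20.3 (primary, titled NFIA OE and control). The values were neither logged nor centred, and the medians of the listed values in that order were 0.816, 0.700, 0.830 and 0.882. How the constants were chosen is unknown here.

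Outlier-flagged spots were left out and spots averaged per probe (1857 probes, 13000 spots an array, 0 saturated). Probe means were divided by the array's 75th percentile over commonly detected probes and log2-transformed. limma 3.58.1 in R 4.3.3 fitted title and passage as additive terms over 153 miRNAs (1 residual degree of freedom, infinite prior, residual SD 0.29 log2), with Benjamini-Hochberg adjustment and a threshold of 0.05. Residuals also hold any interaction of title and passage, which had no test. On simulated arrays with 30 changed miRNAs the title fit recovered 65.5% of 2-fold changes and 90.0% of 4-fold changes, and the passage fit 65.5% and 95.0%. Precision is limited by having 4 arrays. Position on the slide goes with group and cannot be told apart from it.

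Named miRNAs were the members, the list reported to target Nfia, seed relatives on the array, the 5 nearest profiles and marker lists by count. The members and lists were chosen with earlier results of these data known.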

Additional observations from a re-analysis of the deposited data

How the results depend on the processing

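Of 13 alternatives for the title difference of miR-153, 2 return the reported estimate by construction and 3 use the dim probe set at a floor. The 8 others were negative and not called. The passage difference turned positive when all probes set the percentile (0.10), without scaling (0.30) and with the authors' processed values (0.019), and was called with normexp (-0.54) and the median over spots (-0.66). In single pairs, without scaling the primary title difference was -0.25, and the passage difference was -0.055 in the pair titled NFIA OE and 0.66 in the pair titled control. When all probes set the percentile those passage values were 0.022 and 0.17, and they were 0.12 and -0.082 with the authors' processed values. Median centring gave 0.14 in the pair titled NFIA OE, and probe A_54_P1105 alone, partly a bound, gave -0.42 in the pair titled control. Called by title were 4 miRNAs (2 higher and 2 lower), but 2 (2 higher, 0 lower) under each of 3 choices (all probes setting the percentile, no scaling, no filter). By limma 0 were called with median centring (6 at an unadjusted p under 0.05), quantile normalization (7) or passage left out (2). Called by passage were 70 (20 higher, 50 lower), but 30 (25 higher, 5 lower) when all probes set the percentile, 21 (20 higher, 1 lower) without scaling, 108 (19 higher, 89 lower) with detection on at least 1 array and, by limma, 0 with median centring (44 at an unadjusted p under 0.05) or quantile normalization (67). The authors' values gave 39 higher and 17 lower by passage, and normexp 14 higher and 73 lower. Counting spots that are positive and significant gave 55 for miR-223 in place of 0. The cause of these changes was not tested. The reported title fit already compares arrays within each passage, and with passage left out the title difference had a limma adjusted p of 0.989. The labels give no replicate numbers for any further pairing. The fits for miR-322 and the nearest miRNAs under other settings were added after seeing the data.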
